A study of Mus musculus with 10 samples.

Results

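The transcription factor Myc and the genes that build ribosomes were followed in tumor-infiltrating CD8+ T cells. The set was taken by mouse symbol and holds 46 genes of the 34932 that the deposited tables cover: Myc and 3 genes of its network, the RNA polymerase I machinery, the small nucleolar ribonucleoproteins (snoRNPs), the assembly factors of both ribosomal subunits, and 2 enzymes of polyamine synthesis. Of these, 45 had enough reads to be tested, among 11781 genes tested in all. RNA was measured by bulk RNA sequencing in 10 libraries, 5 labelled MIT-BATF and 5 labelled MIT-Empty. In both groups the donors were Pmel Thy1.2/Thy1.2 mice, whose CD8+ T cells carry a transgenic receptor for the melanoma antigen gp100. The cells were stimulated with gp100 peptide and IL-2 for 24 h before they were transduced. Cells of the MIT-BATF group received the retroviral vector MSCV-IRES-Thy1.1 with the mouse BATF open reading frame, and cells of the MIT-Empty group received the same vector without an insert. Both were expanded in IL-2, IL-7 and IL-15, and a fixed number of Thy1.1+ cells was given to each Ly5.1 (CD45.1) host carrying a B16-F10 melanoma. On day 7, 2000 live Thy1.1+ cells per tumor, the cells that carry the vector's marker, were sorted for a SMART-Seq2 library. Every value is therefore a mean over the sorted sample, in which melanoma and macrophage transcripts were also counted (below). The hosts kept their own T cells, and the age of the mice is not part of the labels. The comparison asks whether forced expression of BATF, an AP-1 family factor of activated T cells, goes with other levels of these genes.

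Myc pairs with Max and binds the DNA hexamer CACGTG, the E-box, from which it raises transcription of many growth genes, while Mxd4 competes with Myc for Max and represses. T cells switch Myc on after antigen contact, and ribosome output then rises with it. RNA polymerase I makes the ribosomal RNA precursor in the nucleolus, snoRNPs modify it, and assembly factors fold and cut it into the small and the large subunit. Spermidine and spermine, the polyamines, are needed for translation in growing cells.

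The E-boxes in the promoters of the set are shown because they are the sequence through which Myc and its partners contact their targets. Promoters covered 250 bases before and 50 after each RefSeq start site (GRCm38.p6). The palindrome CACGTG, which reads alike on both strands, was found in 11 of the 40 members with a promoter there (27.5%), against 11.67% of 8827 tested genes and 8.093% of all 27025 genes in that set. Counted by promoter, since a gene can have several, it was 22.45% of the 49 promoters of members against 7.15% of all 32851. There were 12 such sites, 4 before the start site, 7 after it and 1 across it, printed on the strand of the gene from 5′ to 3′ with the E-box in capitals. Rrn3, Wdr43, Tsr1, Nop2, Pes1 and Mybbp1a lie on the plus strand and the other genes on the minus strand.
Max, chr12:76962234-76962263: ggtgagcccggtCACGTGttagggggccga
Mxd4, chr5:34187912-34187941: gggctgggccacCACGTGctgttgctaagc
Rrn3, site 1, chr16:13780472-13780501: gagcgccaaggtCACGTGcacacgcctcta
Rrn3, site 2, chr16:13780639-13780668: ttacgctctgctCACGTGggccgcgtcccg
Wdr43, chr17:71616220-71616249: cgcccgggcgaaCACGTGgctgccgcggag
Utp20, chr10:88826765-88826789: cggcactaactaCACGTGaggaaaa
Tsr1, chr11:74898092-74898121: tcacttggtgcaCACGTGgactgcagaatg
Nop2, chr6:125131811-125131840: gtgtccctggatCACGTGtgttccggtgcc
Pes1, chr11:3963965-3963994: ccctaggcagggCACGTGcgggaggaagta
Nle1, chr11:82908355-82908384: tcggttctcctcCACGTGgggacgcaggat
Grwd1, chr7:45830740-45830767: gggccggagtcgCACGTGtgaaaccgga
Mybbp1a, chr11:72441355-72441376: gtcttctgagccCACGTGtttg

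Myc, Fbl, Npm1, Rrp12, Bop1 and Srm had no promoter in that set. A match of 6 letters is a description of the sequence and does not show binding.

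Several properties of the libraries bear on every value below. Total counts ran from 10702740 to 34102086 per MIT-BATF library and from 6534472 to 21355657 per MIT-Empty library. The counts of replicate 4 lay within those of replicate 2 and the counts of replicate 5 within those of replicate 3, in both groups: the contained library exceeded the containing one in at most 0.661% of genes with 5 or more counts, against at least 3.54% in every other pair of libraries. These libraries are therefore not independent, so the calls are also given with the shared reads counted once. Batf itself was not higher in the libraries labelled MIT-BATF, at 21.9 ± 5.54 CPM (counts relative to the library total, scaled by the TMM method) against 29.2 ± 14.8 CPM in MIT-Empty libraries (SD, n = 5 each, log2 fold change -0.41, edgeR adjusted p = 0.522). No source used here says whether the synthesized reading frame matches the reference transcript. Groups follow the labels, whether the labels are exchanged was not tested, and the sign of every fold change here rests on them. MIT-BATF replicate 1 had 33.2% mitochondrially encoded counts, against 11.5% to 15.1% in the other MIT-BATF libraries and 15.5% to 23.1% in MIT-Empty libraries. The CD8 T cell genes (Cd8a, Cd8b1, Cd3d, Cd3e, Cd3g, Cd2 and Lck) summed to 2636 to 4377 CPM in MIT-BATF against 2918 to 4707 CPM in MIT-Empty libraries, and 0 of 7 passed the test. The 8 melanoma genes, Tyrp1 and Dct the most abundant by the mean over libraries, summed to 14.4 to 29.5 CPM in MIT-BATF against 39.7 to 1738 CPM in MIT-Empty libraries, and 6 of the 6 tested were lower in MIT-BATF. The 9 macrophage genes, led by Lyz2, summed to 23.3 to 76.1 CPM in MIT-BATF against 40.0 to 276 CPM in MIT-Empty libraries (3 of 8 tested were lower). With shared reads counted once these were 2 of 5 and 1 of 8. Other sums were those for B cells (2.46 to 4.64 CPM in MIT-BATF, 0.609 to 1.59 CPM in MIT-Empty), led by Cd79b (higher in MIT-BATF, edgeR adjusted p = 0.0175, but 0.128 with shared reads counted once), for fibroblasts and endothelium (6.58 to 13.5 CPM in MIT-BATF, 14.1 to 96.0 CPM in MIT-Empty), led by Pecam1 in the mean over libraries but with 7.60 of the 96.0 CPM from it in MIT-Empty replicate 4, and for neutrophils (0.323 to 2.94 CPM in MIT-BATF, 0 to 0.323 CPM in MIT-Empty), led by S100a8. No marker of these lists was at 0 in all libraries.

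Myc was the 1 member that passed the test, and it was higher in the libraries labelled MIT-BATF. Summed over its transcripts, the gene (ENSMUSG00000022346.15, GRCm38 chr15:61985391-61990374, plus strand) stood at 39.7, 52.3, 51.6, 38.0 and 47.9 CPM in MIT-BATF replicates 1 to 5. In MIT-Empty replicates 1 to 5 it stood at 34.9, 24.5, 29.7, 28.1 and 27.6 CPM. The lowest MIT-BATF library, replicate 4, lay above the highest MIT-Empty library, replicate 1, so the groups did not overlap. Of all genes tested, 3.28% were higher in MIT-BATF without overlap, and Myc was the 1 member among them. Another 3.17% were lower without overlap, with 0 members among them. The means were 45.9 ± 6.69 CPM in MIT-BATF against 29.0 ± 3.80 CPM in MIT-Empty (SD, n = 5 each). This is a 1.59-fold difference. In edgeR's quasi-likelihood test the log2 fold change of Myc was 0.67 (SE 0.15, Benjamini-Hochberg adjusted p over all genes = 0.0173). By the same call 2.16% of all genes tested were higher and 2.43% were lower in MIT-BATF (4.58% in either direction), so 1 of 45 members higher and 0 lower is close to the background share.

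The edgeR call for Myc did not hold once reads found in more than 1 library were counted a single time. With shared reads counted once, Myc had 42.6, 67.7, 58.3, 40.8 and 51.5 CPM in MIT-BATF against 37.5, 25.1, 33.8, 30.4 and 29.7 CPM in MIT-Empty libraries. The groups still did not overlap and the log2 fold change was 0.74 (SE 0.19), but the edgeR adjusted p became 0.074. It also missed the threshold without MIT-BATF replicate 2 (edgeR adjusted p = 0.0525) or without MIT-Empty replicate 2 (edgeR adjusted p = 0.0663). Melanoma RNA was highest in MIT-Empty replicates 4 and 2. The counts of replicate 4 lie within those of replicate 2, so these are not separate observations. Without both, the log2 fold change of Myc was 0.59 (edgeR adjusted p = 0.140). Without MIT-Empty replicate 4 alone it was 0.66 (edgeR adjusted p = 0.0390). Myc was 28.1 CPM in MIT-Empty replicate 4 and 24.5 CPM in MIT-Empty replicate 2, against 27.6 to 34.9 CPM in the other MIT-Empty libraries, and the part of melanoma RNA in the Myc values was not tested. Because RNA was pooled from sorted cells, more cells with Myc and more Myc RNA per cell cannot be told apart.

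**Figure D1:**
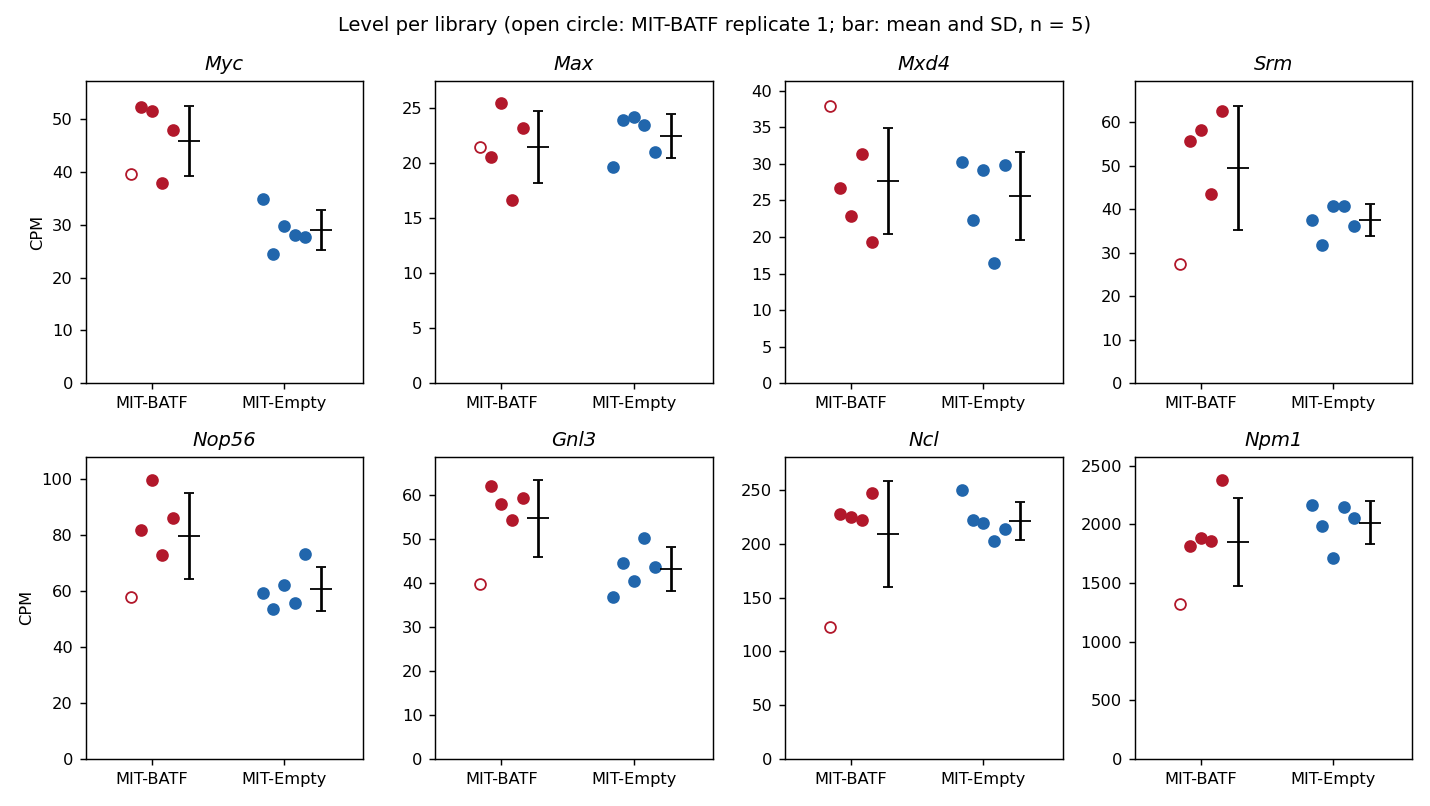
Level of 8 members in each library, in CPM on TMM-scaled library sizes from a linear axis starting at 0, with MIT-BATF (red) left of MIT-Empty (blue) and the mean and SD of 5 libraries beside the points. Myc shows no overlap between the groups, with 38.0 to 52.3 CPM in MIT-BATF against 24.5 to 34.9 CPM in MIT-Empty, and the open circle, MIT-BATF replicate 1, is the lowest library for Srm, Ncl and Npm1.

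The partners of Myc did not pass the test. Max, the obligate partner, had 21.4, 20.5, 25.4, 16.6 and 23.2 CPM in MIT-BATF against 19.6, 23.8, 24.1, 23.4 and 21.0 CPM in MIT-Empty libraries. These ranges overlapped throughout, and the log2 fold change of Max was -0.06 with a 95% interval of -0.38 to 0.26 (edgeR adjusted p = 0.883). Mxd4, the antagonist, had 37.9, 26.6, 22.9, 31.4 and 19.4 CPM in MIT-BATF against 30.2, 22.3, 29.1, 16.5 and 29.8 CPM in MIT-Empty libraries. The spread within each group was wider than the difference for Mxd4 (log2 fold change 0.10, interval -0.34 to 0.55, edgeR adjusted p = 0.854). Mxd4 shares 37-base stretches with Scfd2, so its level is uncertain. Mycn, the relative of Myc used mainly in early neural and embryonic cells, was near 0. It had 0, 9, 4, 2 and 1 counts in MIT-BATF and 1, 1, 6, 0 and 1 counts in MIT-Empty libraries, and was the 1 member too low to test.

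Levels of different members can be set side by side only per length, which the deposited TPM values give. The nucleolar chaperone Npm1 was the most abundant member at 882 ± 252 TPM in MIT-BATF and 906 ± 44.2 TPM in MIT-Empty. Odc1, the first enzyme of polyamine synthesis, followed with 180 ± 55.0 TPM in MIT-BATF and 148 ± 33.5 TPM in MIT-Empty. Myc was 15th of the 46 members, at 18.4 ± 6.49 TPM in MIT-BATF and 11.2 ± 2.04 TPM in MIT-Empty. At the low end stood Rrp12, with 0.909 ± 0.400 TPM in MIT-BATF and 0.606 ± 0.0912 TPM in MIT-Empty, and then Mycn.

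The set as a whole, Myc included, lay near the middle of all genes. The median log2 fold change of the 45 members was 0.10, against 0.01 over all genes tested. Of the members, 28 lay above 0 and 17 below, which is 62.2% above 0 against 50.7% of all genes tested. Values ran from -0.47 for Rrp1b to 0.67 for Myc, and 34 members were within 0.25 of 0. At an unadjusted p under 0.05 there were 3 members, Myc, Nop56 and Gnl3, which is 3 of 45 where 18.1% of all genes reached that level. The 95% interval of the fold change lay within 2-fold in either direction for 41 members and within 1.5-fold for 17. The 4 members whose intervals reached past 2-fold were Rrp9, Rrp12, Nle1 and Rrp1b. With shared reads counted once, 0 members passed the test in edgeR, where 0.575% of genes were higher and 0.683% lower, and DESeq2 on the same counts still called Myc (adjusted p = 0.0218), where 1.17% of genes were higher. On the deposited counts DESeq2 also called Myc as the 1 member, where 3.27% of genes were higher and 4.73% lower.

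**Figure D2:**
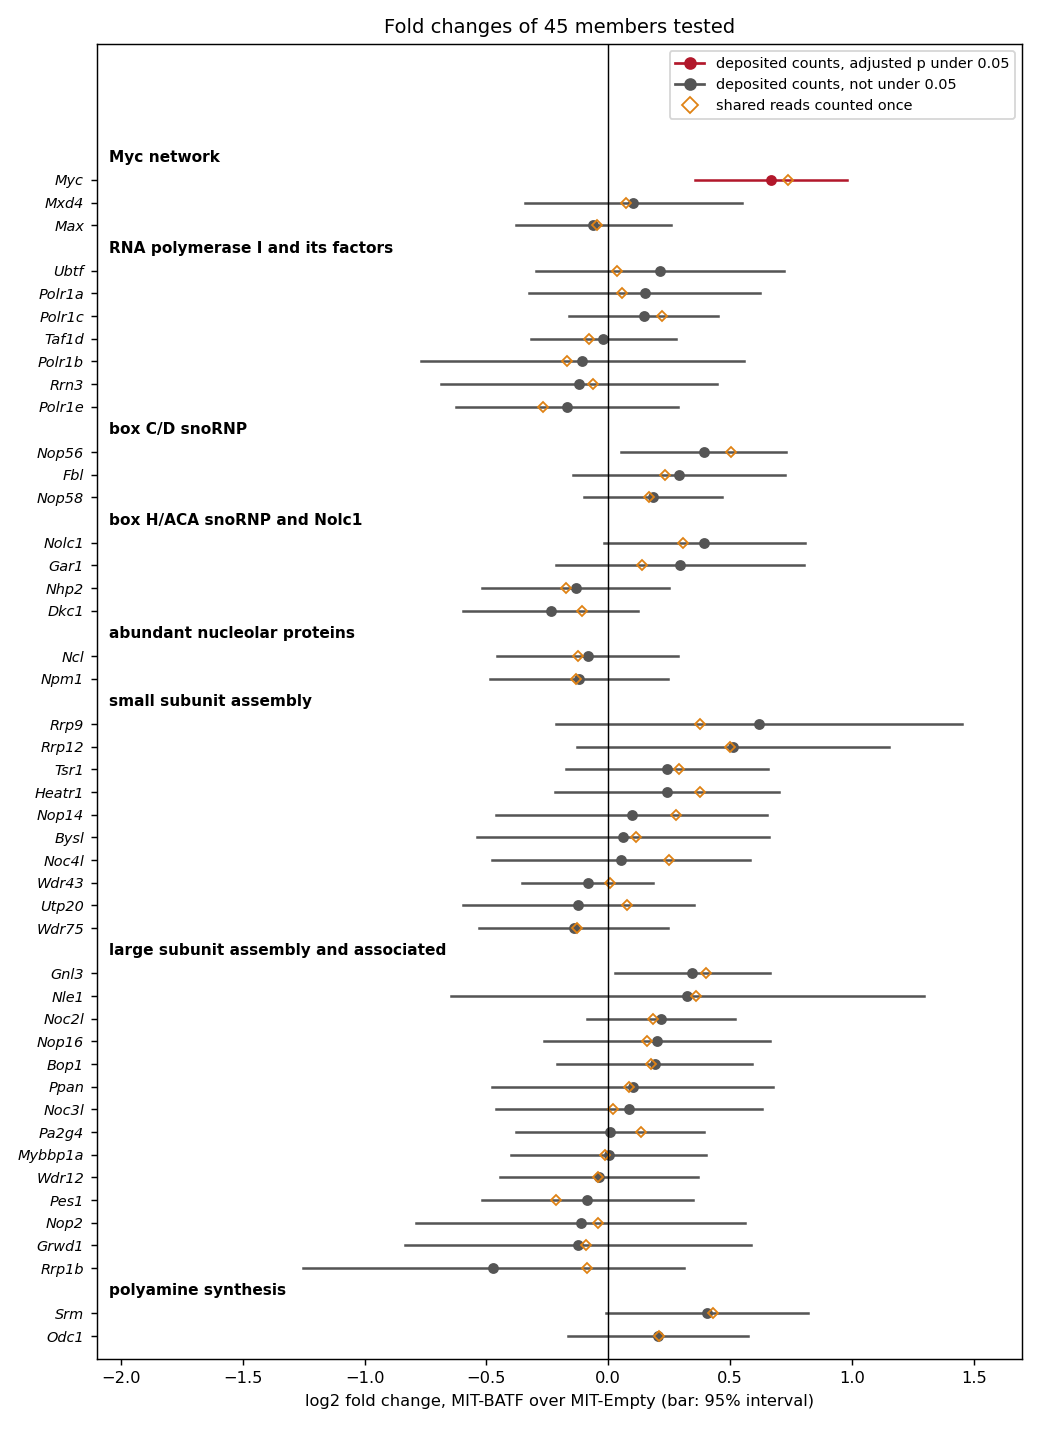
Fold changes (log2, MIT-BATF over MIT-Empty) of the 45 members tested, grouped by role, with circles and 95% intervals from the deposited counts and open diamonds from the fit with shared reads counted once. Myc, at 0.67, is drawn in red as the 1 member with an edgeR adjusted p under 0.05, and the bars of 41 members end within 2-fold.

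None of the 7 members of the RNA polymerase I machinery passed the test, and their median log2 fold change was -0.02. Polr1a, the largest subunit, had 6.85, 10.2, 9.67, 8.42 and 7.28 CPM in MIT-BATF against 7.59, 9.13, 9.58, 6.63 and 5.14 CPM in MIT-Empty libraries (log2 fold change 0.15). The second largest subunit Polr1b averaged 5.47 ± 2.40 CPM in MIT-BATF against 5.94 ± 1.49 CPM in MIT-Empty. Polr1c, a subunit shared with RNA polymerase III, averaged 34.0 ± 5.49 CPM in MIT-BATF against 30.8 ± 2.41 CPM in MIT-Empty. The subunit Polr1e had a log2 fold change of -0.17. For the initiation factors the log2 fold changes were 0.21 for Ubtf, which binds the ribosomal DNA promoter, -0.12 for Rrn3, which recruits the polymerase, and -0.02 for Taf1d, a subunit of the promoter selectivity factor. Rrn3 carries 2 of the E-boxes printed above and had 5.97, 7.70, 12.6, 6.56 and 12.8 CPM in MIT-BATF against 8.08, 7.00, 12.5, 9.70 and 12.6 CPM in MIT-Empty libraries, nearly the same range in both groups.

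The 3 core proteins of the box C/D snoRNPs, which guide methylation of ribosomal RNA, all had log2 fold changes above 0, with a median of 0.29. Nop56 had 58.0, 81.9, 99.6, 72.9 and 86.1 CPM in MIT-BATF against 59.4, 53.5, 62.1, 55.8 and 73.4 CPM in MIT-Empty libraries. Apart from replicate 1, the MIT-BATF libraries were near or above the highest MIT-Empty library for Nop56, and the log2 fold change was 0.39 (interval 0.05 to 0.73, unadjusted p = 0.0258, edgeR adjusted p = 0.199). The methyltransferase Fbl averaged 35.3 ± 10.1 CPM in MIT-BATF against 28.9 ± 4.70 CPM in MIT-Empty (log2 fold change 0.29, edgeR adjusted p = 0.504). Nop58 averaged 75.8 ± 9.82 CPM in MIT-BATF against 66.9 ± 4.82 CPM in MIT-Empty (log2 fold change 0.18, edgeR adjusted p = 0.521). Fbl shares 37-base stretches with Tulp4, so its level is uncertain.

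The box H/ACA snoRNPs convert uridine to pseudouridine, and their members went both ways without passing the test. Dkc1, the pseudouridine synthase, had a log2 fold change of -0.24 and the core protein Nhp2 one of -0.13, while the core protein Gar1 was at 0.30. Nolc1, a chaperone of both snoRNP classes, had 28.7, 26.4, 36.1, 25.5 and 44.8 CPM in MIT-BATF against 34.2, 24.1, 21.7, 23.9 and 19.5 CPM in MIT-Empty libraries. The libraries of Nolc1 overlapped, and its log2 fold change was 0.39 (interval -0.02 to 0.81, edgeR adjusted p = 0.297).

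Nucleolin and nucleophosmin, the abundant proteins of the nucleolus, were at like levels in both groups apart from 1 library. Ncl had 122, 228, 225, 222 and 248 CPM in MIT-BATF against 250, 222, 219, 202 and 214 CPM in MIT-Empty libraries. Its MIT-BATF replicate 1 stood well below the other 9 libraries, and the log2 fold change of Ncl was -0.08 (interval -0.46 to 0.29). Npm1 had 1324, 1813, 1883, 1862 and 2379 CPM in MIT-BATF against 2167, 1984, 1716, 2152 and 2052 CPM in MIT-Empty libraries. The log2 fold change of Npm1 was -0.12 (interval -0.49 to 0.25, edgeR adjusted p = 0.780), and replicate 1 was again the lowest.

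Of the 10 assembly factors of the small subunit, 0 passed the test and 7 had log2 fold changes above 0, with a median of 0.08. The largest log2 fold changes were those of Rrp9, the U3 snoRNP protein, at 0.62 (interval -0.21 to 1.45) and Rrp12, known from yeast as a factor of export and maturation, at 0.51 (interval -0.13 to 1.15). Rrp12 had 2.19, 7.58, 6.14, 6.95 and 7.28 CPM in MIT-BATF against 4.29, 3.60, 4.54, 4.53 and 4.31 CPM in MIT-Empty libraries. Replicates 2 to 5 of MIT-BATF were above every MIT-Empty library for Rrp12 and replicate 1 was below all of them. Rrp9 showed the same arrangement on the deposited counts, with 1.76, 9.29, 10.6, 8.51 and 13.0 CPM in MIT-BATF against 5.27, 8.47, 5.94, 4.85 and 3.48 CPM in MIT-Empty libraries. With shared reads counted once it did not. Rrp9 was then 10.7, 9.41 and 9.15 CPM in MIT-BATF replicates 2, 3 and 4, below the 11.1 CPM in MIT-Empty replicate 2. Its log2 fold change was then 0.38 (edgeR adjusted p = 0.865). The large processome proteins Heatr1, at 0.24, and Utp20, at -0.12, and the subcomplex members Wdr43, at -0.08, and Wdr75, at -0.14, were closer to 0 in log2 fold change. So were the late factors Tsr1 (0.24) and Bysl (0.06) and Nop14 and Noc4l, which act as a pair in yeast (0.10 and 0.05). Tsr1 and Wdr43 each carry an E-box and host snoRNA genes, and neither passed the test. Tsr1 shares 37-base stretches with Srr, so its level is uncertain.

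The 14 large subunit and associated factors had a median log2 fold change of 0.05, with 9 above 0 and 0 past the threshold. Gnl3 (nucleostemin), a nucleolar GTPase, had 39.9, 62.1, 58.1, 54.5 and 59.5 CPM in MIT-BATF against 36.9, 44.7, 40.4, 50.3 and 43.7 CPM in MIT-Empty libraries. Again replicates 2 to 5 of MIT-BATF were above every MIT-Empty library and replicate 1 was among them (log2 fold change 0.35, interval 0.03 to 0.66, unadjusted p = 0.0348, edgeR adjusted p = 0.230). Pes1, Bop1 and Wdr12, which form the PeBoW complex of large subunit maturation, had log2 fold changes of -0.09, 0.19 and -0.04. The Noc2l and Noc3l pair, known from yeast as transport factors of the precursor, were at 0.22 and 0.08.

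No other factor of the large subunit passed the test. Nop2, a methyltransferase of large subunit RNA, was at -0.11 in log2 fold change, Nop16 at 0.20, the WD repeat factor Nle1 at 0.33 and the histone and ribosome chaperone Grwd1 at -0.12. Pa2g4, a growth regulator bound to ribosomes, averaged 104 ± 27.9 CPM in MIT-BATF against 104 ± 7.37 CPM in MIT-Empty. Mybbp1a, which has been tied to Myb and to ribosomal RNA processing, averaged 17.8 ± 4.47 CPM in MIT-BATF against 17.7 ± 2.47 CPM in MIT-Empty. Rrp1b, a nucleolar protein, had the lowest log2 fold change of the set, -0.47 (interval -1.25 to 0.31, edgeR adjusted p = 0.555), with 1.58, 7.58, 8.37, 3.43 and 4.10 CPM in MIT-BATF against 5.75, 6.64, 6.26, 10.5 and 6.56 CPM in MIT-Empty libraries. The log2 fold change of Rrp1b was -0.09 with shared reads counted once. Ppan, at 0.10, shares 37-base stretches with Gm48789, which has several times its counts, so its level is uncertain.

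In polyamine synthesis both members were above 0 and neither passed the test. Srm, spermidine synthase, had 27.4, 55.7, 58.2, 43.6 and 62.7 CPM in MIT-BATF against 37.6, 31.9, 40.8, 40.7 and 36.3 CPM in MIT-Empty libraries. On these deposited counts replicates 2 to 5 of MIT-BATF again lay above every MIT-Empty library for Srm, and replicate 1 below all of them (log2 fold change 0.41, interval -0.01 to 0.82, edgeR adjusted p = 0.286). With shared reads counted once, Srm was 46.8 CPM in MIT-BATF replicate 4, below the 48.3 CPM in MIT-Empty replicate 3. Odc1 had 549, 610, 670, 700 and 512 CPM in MIT-BATF against 546, 547, 568, 342 and 635 CPM in MIT-Empty libraries (log2 fold change 0.20, edgeR adjusted p = 0.595), and its groups overlapped.

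The levels of the members also differed between the MIT-BATF libraries. MIT-BATF replicate 1 was the lowest of the 10 libraries for 22 of the 45 members, and the median deviation of the members from their 10-library mean there was -0.31 on the log2(CPM + 1) scale. The same median was 0.19, 0.24, -0.04 and 0.20 in MIT-BATF replicates 2 to 5. In MIT-Empty replicates 1 to 5 it was 0.02, 0.01, 0.03, -0.08 and 0.01, a narrower spread. Over all genes tested the median deviation of MIT-BATF replicate 1 was -0.01. TMM scaling centers the typical gene of each library, so this value is no comparison set for the members. How many of all genes were lowest in MIT-BATF replicate 1 was not counted. Low values there were not confined to the members. The CD8 T cell sum was lowest there too (2636 CPM). So were Polr1d, Rsl1d1, Exosc8, Eif5a, Eif4a1 and Hspe1, each the most abundant gene of another pathway list (below). Mxi1, Fcf1 and Smarca5, chosen alike, were not. MIT-BATF replicate 1 also had the highest share of mitochondrially encoded counts, 33.2%, and the part of that share in its low values was not tested.

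**Figure D3:**
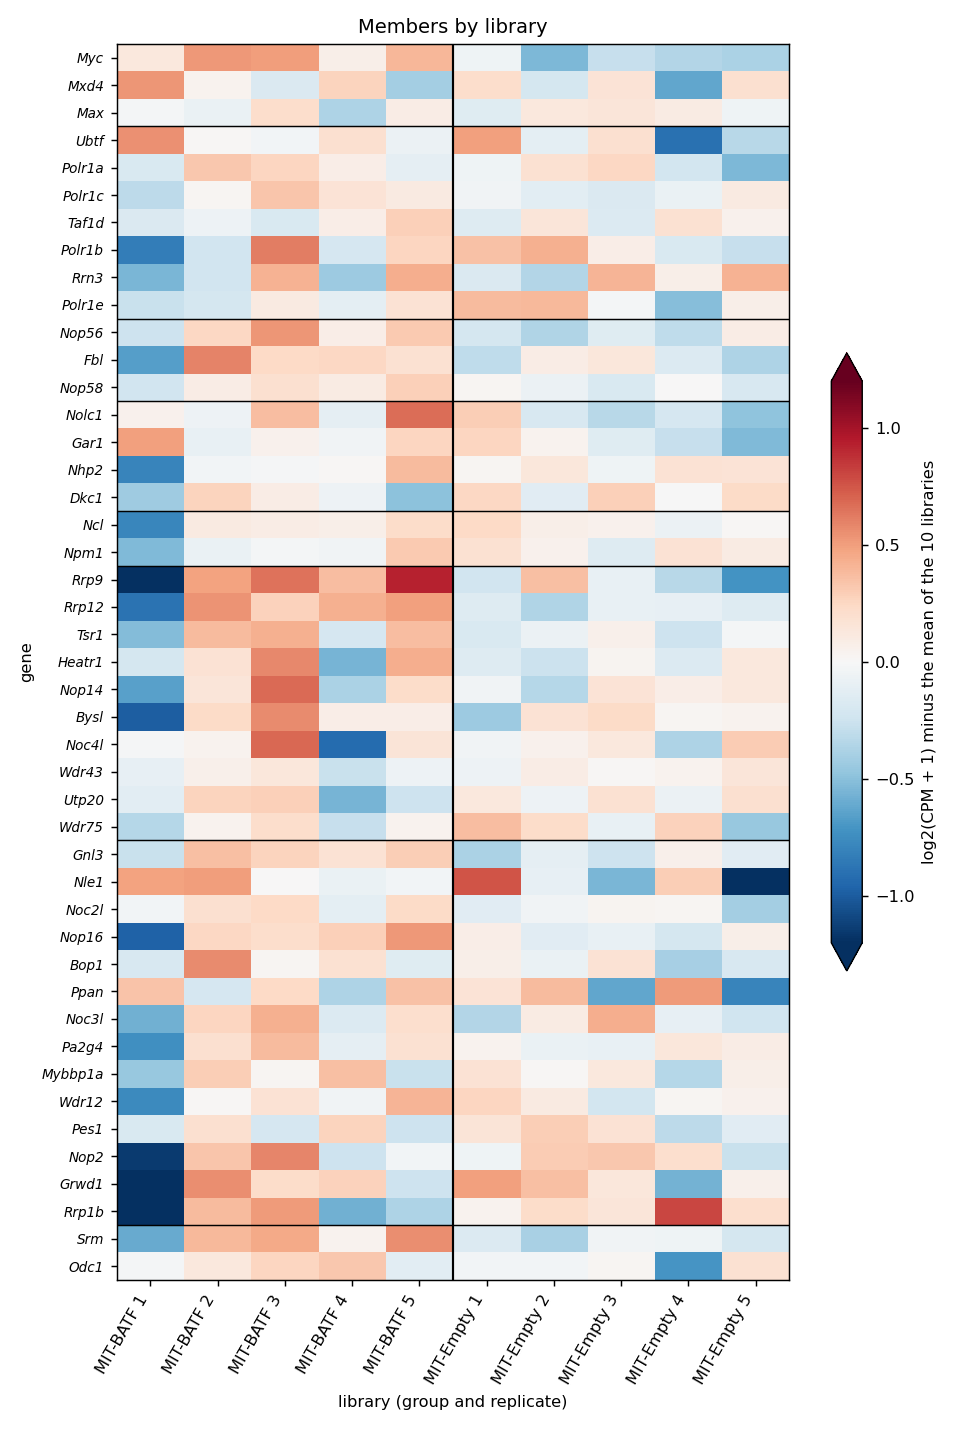
Deviation of each of the 45 members (down, by role) in each of the 10 libraries (across, MIT-BATF left of MIT-Empty) from the mean of the 10 libraries, as log2(CPM + 1), with colors saturated beyond the ends of the scale. The first column, MIT-BATF replicate 1, is blue for most members (median -0.31) and the columns of MIT-BATF replicates 2, 3 and 5 are red for most (medians 0.19, 0.24 and 0.20).

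Leaving out MIT-BATF replicate 1, a step chosen with these values known, gave more calls. Myc, Srm, Nop56, Rrp12 and Gnl3 were then higher in MIT-BATF, 5 of 45 members against 2.84% of all genes, and 0 members were lower against 3.39%. Their log2 fold changes were 0.72 for Myc (edgeR adjusted p = 0.0100), 0.57 for Srm (0.0277), 0.49 for Nop56 (0.0497), 0.72 for Rrp12 (0.0485) and 0.45 for Gnl3 (0.0468). The median of the members was then 0.16, against -0.01 over all genes in that fit, with 35 of 45 members above 0. Without that library 8 members did not overlap between the groups, namely Myc, Fbl, Nop58, Rrp9, Rrp12, Nop16, Gnl3 and Srm, where 5.39% of all genes were higher without overlap. These are deposited counts, in which replicates 4 and 5 lie within replicates 2 and 3. With shared reads counted once and that library again left out, Fbl, Rrp9, Nop16 and Srm overlapped. Myc, Nop58, Rrp12 and Gnl3 still did not. The limma voom fit kept all 10 libraries and weights each by its spread around its group. It called the same 5 genes higher and 0 members lower, where 5.41% of all genes were higher and 5.93% lower. A library that deviates from its group counts less in it, so it is no separate check on leaving out replicate 1. When replicate 1 was left out and shared reads were also counted once, edgeR called 0 members, where 0.541% of genes were higher, and the adjusted p of Myc was 0.0565.

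Small nucleolar RNAs are often encoded in introns of genes of this kind. On the same strand, 10 of the 45 members tested (22.22%) had a snoRNA gene inside their span, against 1.767% of 11146 protein-coding genes tested. Taf1d held 8, Nop56 5, Nop58 4, Gnl3, Ncl and Wdr43 3 each, Ppan and Tsr1 2 each, and Dkc1 and Odc1 1 each. The 10 hosts had a median log2 fold change of 0.14 and the 35 other members one of 0.08. The 11 members with an E-box had a median log2 fold change of -0.08 with 4 above 0, against 0.10 with 19 above 0 in the 28 tested members whose promoters had none. Both are descriptions of the members, without a test.

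Other genes of the same pathways were scored alongside, 160 genes in 9 lists that hold no member. Of the 158 tested, 0 were higher and 1 was lower in edgeR, where 2.16% of all genes were higher and 2.43% lower, and 18 had an unadjusted p under 0.05, where 18.1% of all genes did. All 3 counts are below the background shares. Their median log2 fold change was 0.08. The 1 gene called lower was Sms, spermine synthase, the enzyme after Srm in the polyamine pathway. Sms had 40.9, 38.8, 41.1, 32.5 and 37.2 CPM in MIT-BATF against 64.9, 51.6, 62.1, 46.1 and 52.9 CPM in MIT-Empty libraries. The groups did not overlap for Sms, with a log2 fold change of -0.54 (SE 0.14, edgeR adjusted p = 0.0357), but the call was not stable. The edgeR adjusted p of Sms was 0.174 with shared reads counted once, and leaving out 1 library at a time ended the call in 8 of 10 fits (0.0579 to 0.101), all but those without MIT-BATF replicate 1 or MIT-Empty replicate 4.

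The most abundant gene of each list did not pass the test. Mxi1, a relative of Mxd4, averaged 57.6 ± 8.70 CPM in MIT-BATF against 46.5 ± 4.66 CPM in MIT-Empty (log2 fold change 0.31, edgeR adjusted p = 0.262). Log2 fold changes were -0.09 for the RNA polymerase I and III subunit Polr1d, -0.22 for the small subunit factor Fcf1, 0.15 for the nucleolar protein Rsl1d1, -0.07 for the exosome subunit Exosc8 and -0.12 for the chromatin remodeler Smarca5. They were -0.07 for Eif5a, the protein that carries the polyamine-derived hypusine, -0.13 for the helicase Eif4a1 and -0.01 for the mitochondrial chaperonin Hspe1. The list medians ran from -0.11 for the 12 translation factors to 0.28 for the 8 tested genes of the wider Myc network. The other medians were 0.16 for RNA polymerase I, 0.08 for the small subunit, 0.15 for the large subunit, -0.05 for the exosome, 0.22 for silencing of ribosomal RNA genes, 0.00 for polyamines and hypusine and -0.01 for reported Myc targets in metabolism.

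**Figure D4:**
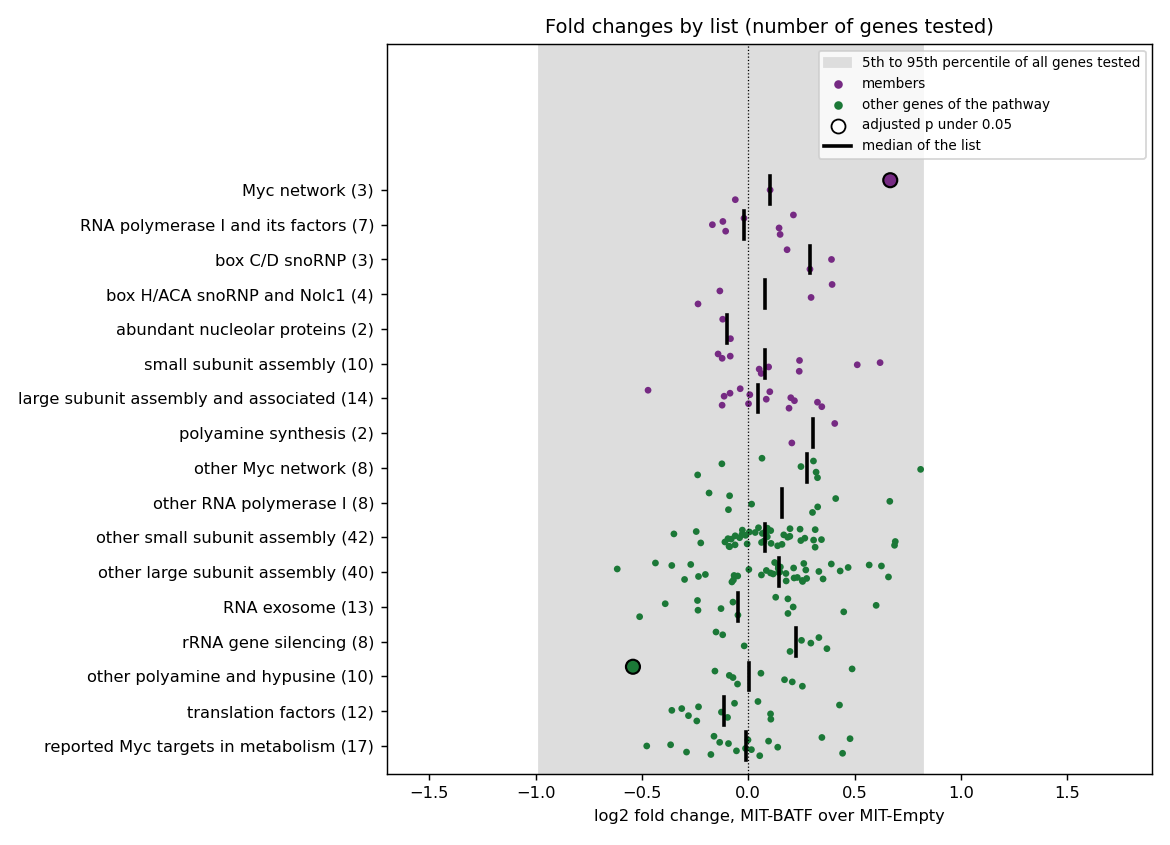
Fold changes (log2, MIT-BATF over MIT-Empty) of the members by role (purple) and for 9 lists of other genes of the pathway (green), with black bars at list medians and grey for the 5th to 95th percentile of all genes tested (-0.98 to 0.82). Ringed points mark Myc (0.67) and Sms (-0.54), the genes with an edgeR adjusted p under 0.05, and every list median lies between -0.11 and 0.31.

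Genes of cell division, which often move together with ribosome synthesis, were scored in the same libraries. The 12 proliferation genes, with Pcna the most abundant, summed to 732 to 902 CPM in MIT-BATF against 1072 to 1108 CPM in MIT-Empty libraries. Their median log2 fold change was -0.57, and 5 of 12 were lower in MIT-BATF in edgeR, where 2.43% of all genes were lower. With shared reads counted once, 0 of the 12 passed the test and the median was -0.56. On the deposited counts Pcna did not pass the test (log2 fold change -0.27, edgeR adjusted p = 0.285). Pcna averaged 350 ± 27.8 CPM in MIT-BATF against 422 ± 37.4 CPM in MIT-Empty, a large part of each sum. Top2a, a DNA topoisomerase of dividing cells, was among those called lower on these counts. It had 58.5, 50.8, 61.8, 41.1 and 57.5 CPM in MIT-BATF against 98.6, 94.9, 90.6, 102 and 69.6 CPM in MIT-Empty libraries. The sums of these 12 genes and Myc thus lay apart in opposite directions in the same libraries, and the relation between them was not tested.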

How the data were processed

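RNA sequencing (37 bp paired reads) came from 10 sorted samples, grouped and numbered by their labels. The authors ran nf-core/rnaseq on the mm10 genome and quantified with Salmon, which the submitters' processing notes name without a version. The deposited tables hold, per transcript, Salmon's estimated counts, which need not be whole. They also hold TPM values that the authors' run of Salmon scaled to effective length and library total, used here for levels between genes only, and the deposited lengths were not used in tests. GENCODE (GRCm38) lacked 305 of the 112092 transcripts, which held 0.0617% to 0.089% of counts and were left out.

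Gene sums of the estimated counts were rounded. Genes were tested in edgeR 4.0.16 (quasi-likelihood, TMM, filterByExpr, condition as the only term) on all 11781 genes that passed the filter, adjusted by Benjamini-Hochberg with a threshold of 0.05. CPM values are relative to library sizes scaled by TMM, with SDs over libraries as errors. p-values assume independent libraries. For the fit with shared reads counted once, counts of replicates 4 and 5 were taken off replicates 2 and 3 of their group, with negative values set to 0 (at most 0.215% of a contained library). Nesting was taken where a library exceeded another in fewer than 1% of the genes that had at least 5 counts, which held for 4 of 45 pairs. Alternatives were DESeq2 1.42.0, limma 3.58.1 (voom with quality weights), RLE and upper quartile factors, library totals, no mitochondrially encoded genes, no filter, a mean count of at least 50, a replicate block, each replicate left out, and fits without nested or melanoma-rich libraries. Fits with shared reads counted once that also leave out MIT-BATF replicate 1 or MIT-Empty replicate 4 were added after the values were seen. The test was checked on simulated data with independent libraries, so that check does not cover the nesting. R 4.3.3, Python 3.11.15, pandas 2.3.3 and matplotlib 3.10.9 were used.

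All 46 members are named. From each other pathway list came the genes past the threshold (at most 4) and the most abundant, and from each marker list the most abundant gene and the summed CPM. Also named were Dct, Top2a and the CD8 T cell genes. The members and lists were chosen with earlier results of these data known. The annotation has Twistnb, Cd3eap and Znrd1 for 3 further RNA polymerase I subunits. Strand is not marked, so overlapping antisense genes cannot be told apart, and copies that share 37-base stretches with a member make its level uncertain.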

Additional observations from a re-analysis of the deposited data

Results flagged for a closer look

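In 4 of 90 groups of 5 libraries, a member had 1 library far from the other 4 by Dixon's test, which chance alone gives in about 1 of 20 groups. Ncl was 122 CPM in MIT-BATF replicate 1, against 222 to 248 CPM in MIT-BATF replicates 2 to 5. Rrp12 was 2.19 CPM in MIT-BATF replicate 1, against 6.14 to 7.58 CPM in MIT-BATF replicates 2 to 5. In MIT-Empty replicate 2, Rrp12 was 3.60 CPM, against 4.29 to 4.54 CPM in its other 4 libraries. Rrp1b was 10.5 CPM in MIT-Empty replicate 4, against 5.75 to 6.64 CPM in the 4 others of its group. MIT-BATF replicate 1 had the largest share of mitochondrially encoded counts, and MIT-Empty replicate 4 the most melanoma RNA. Their part in these values was not tested.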

How the results depend on the processing

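Myc was above 0 in all 26 alternatives, with log2 fold changes of 0.47 to 0.81, and past the threshold in 17. It was not past it with library totals alone (0.70, edgeR adjusted p = 0.111), with shared reads counted once (0.74, edgeR adjusted p = 0.074), without the contained libraries (0.72, edgeR adjusted p = 0.154), without the containing libraries (0.47, edgeR adjusted p = 0.637) and without MIT-Empty replicates 2 and 4 together (0.59, edgeR adjusted p = 0.140). The same held with shared reads counted once and MIT-BATF replicate 1 left out (0.81, edgeR adjusted p = 0.0565) or MIT-Empty replicate 4 left out (0.73, edgeR adjusted p = 0.150). Each of these gave 0 members higher. Leaving out 1 library at a time gave 0.61 to 0.75 for Myc and 0 to 5 members higher, with 0 members without MIT-BATF replicate 2 or MIT-Empty replicate 2. limma voom gave 5 members higher, and 0 members were lower in any alternative. The cause of these shifts was not tested. Fits that leave out or subtract libraries have fewer samples or counts.

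Calls over all genes, 540 with the deposited counts, were 116 to 140 in the edgeR fits with shared reads counted once, 15 without the containing and 96 without the contained libraries, 339 with library totals alone, 259 without MIT-Empty replicates 2 and 4 together, 903 with no filter, 1253 in DESeq2, 1336 in limma voom and 287 to 772 leaving out 1 library at a time. The median log2 fold change of all 27403 genes in DESeq2 with shared reads counted once was -0.11, and that of the members 0.10. Of the other pathway genes, DESeq2 gave 3 higher, limma voom 5 higher and 2 lower, no filter 2 higher and 0 lower, and the fit without MIT-Empty replicates 2 and 4 together 1 higher and 0 lower. Sms missed the threshold as well with library totals alone, in each fit with shared reads counted once, without the contained and without the containing libraries (0 lower), and leaving out 1 library at a time gave 0 to 2 higher and 0 to 1 lower.

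Same-numbered libraries of the groups did not deviate together in every pair (correlations -0.05 to 0.22, over 0.1 in 2 of 5 pairs). The nesting followed the same numbers in both groups, and whether same-numbered libraries share a batch was not tested. With the replicate block, Myc was at 0.67 (edgeR adjusted p = 0.0422), the median of the members at 0.07 and 474 genes passed, with Myc still the 1 member called.

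Of the 45 members tested, 23 changed sign in at least 1 alternative, never past the threshold, and 22 in none. Without the contained libraries the log2 fold change was 0.024 for Max, 0.054 for Wdr43, 0.12 for Utp20 and -0.089 for Mybbp1a. Without MIT-Empty replicates 2 and 4 together it was -0.10 for Mxd4, -0.00098 for Ubtf, 0.088 for Taf1d, -0.052 for Noc4l and -0.10 for Mybbp1a. With MIT-BATF replicate 1 left out and shared reads counted once it was -0.068 for Mxd4, 0.015 for Polr1b, -0.096 for Ubtf, 0.061 for Rrn3, 0.017 for Ncl, 0.044 for Wdr43, 0.15 for Utp20, 0.19 for Nop2, 0.10 for Wdr12, 0.14 for Grwd1 and 0.16 for Rrp1b. With MIT-Empty replicate 4 left out and shared reads counted once it was -0.048 for Mxd4, -0.021 for Polr1a, -0.13 for Ubtf, 0.016 for Wdr43, 0.046 for Utp20, -0.035 for Noc3l, 0.12 for Rrp1b and -0.097 for Mybbp1a. With no filter it was 0.030 for Taf1d and 0.018 for Wdr12. Without the containing libraries it was 0.043 for Taf1d, -0.30 for Nop14, -0.19 for Noc4l, -0.10 for Bysl, 0.055 for Pes1, -0.27 for Pa2g4 and -0.070 for Mybbp1a. With shared reads counted once it was 0.0085 for Wdr43, 0.077 for Utp20 and -0.014 for Mybbp1a. In DESeq2 with shared reads counted once it was 0.021 for Wdr43, 0.090 for Utp20 and -0.0050 for Mybbp1a. In limma voom it was 0.034 for Utp20, -0.029 for Noc4l, 0.018 for Nop2, -0.023 for Ppan and 0.12 for Grwd1. With the replicate block it was -0.014 for Noc4l, -0.0075 for Bysl, -0.035 for Pa2g4 and -0.025 for Mybbp1a. With library totals alone it was 0.0085 for Wdr12. With a mean count of at least 50 it was -0.012 for Pa2g4 and -0.015 for Mybbp1a. With upper quartile factors it was -0.0021 for Mybbp1a. Leaving out 1 library at a time gave -0.13 to 0.024 for Max, -0.032 to 0.21 for Mxd4, -0.36 to 0.070 for Polr1b, -0.27 to 0.0055 for Rrn3, -0.10 to 0.028 for Taf1d, -0.26 to 0.014 for Nhp2, -0.15 to 0.065 for Ncl, -0.13 to 0.25 for Nop14 and -0.17 to 0.23 for Noc4l. The same gave -0.12 to 0.26 for Bysl, -0.34 to 0.10 for Nop2, -0.16 to 0.11 for Wdr12, -0.036 to 0.24 for Noc3l, -0.041 to 0.26 for Ppan, -0.32 to 0.098 for Grwd1, -0.097 to 0.16 for Pa2g4 and -0.089 to 0.11 for Mybbp1a.

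Rrp9, Rrp12, Nle1 and Rrp1b had intervals that reached past 2-fold, and depth was not separated there from the spread between libraries. The median SE of the members was 0.20 on the log2 scale, and 0.24 with shared reads counted once.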
